A study of Mus musculus with 4 samples.

Results

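The genes described here are 5 genes of gut hormone and serotonin synthesis in the inflamed mouse colon: Insl5, Pyy, Gcg, Sst and Tph1. They were found by gene symbol in the authors' deposited table, which lists 4121 genes called different between Elf4 knockout and wild-type tissue, and all 5 were found. That table holds called genes alone, so the call of all 5 follows from how they were chosen. RNA was sequenced from the distal part of the inflamed colon of 8-week-old C57BL/6 mice, which were either wild type or carried a knockout of Elf4, an Ets family transcription factor. Mice of both genotypes were given 3% dextran sulfate sodium (DSS), which damages the colon epithelium, and were sampled at day 6. Each genotype had 2 samples, and no group without DSS is analysed here. The labels name no promoter or cell type to which the knockout was limited, and they do not say whether samples of a genotype came from separate mice.

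Levels are given in FPKM, fragment counts divided by transcript length and by library size, which allows different genes to be set side by side. The table has 1 FPKM value per genotype, so no value per sample, spread or interval can be given, and depth is unknown. "Rose" and "fell" mean higher or lower in the knockout by the authors' call. The q given for a gene is from the authors' deposited table. Elf4 itself was 16.4 FPKM in wild-type and 3.51 FPKM in knockout tissue, with 21.4% of the wild-type value left.

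Gut hormones are made by enteroendocrine cells, single secretory cells scattered in the intestinal epithelium. L cells of the distal colon make peptide YY, proglucagon (the precursor of the glucagon-like peptides) and insulin-like peptide 5, and D cells make somatostatin, a peptide that restrains the release of other hormones. Enterochromaffin cells make serotonin from tryptophan, with tryptophan hydroxylase 1 (Tph1) as the rate-limiting step. Somatostatin is also made by some enteric neurons, and Tph1 is also used by mast cells of rodents.

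Promoter stretches of the 5 genes are shown because 3 of the genes fell and 2 rose in the same tissue. They were taken from RefSeq sequences on GRCm38.p6, which held all 5 genes, at the start site nearest the 5′ end of each gene in the deposited table. All 5 genes lie on the minus strand, and each sequence reads 5′ to 3′ towards the gene. Capitals mark matches on either strand to TATAA (the core of a TATA box), to CAGATG (a form of the E-box bound by basic helix-loop-helix factors) or to TGACGTCA (the cAMP response element). The Pyy, Gcg and Tph1 stretches are the 100 bases before the start site. For Insl5 and Sst, 30 bases around the match are shown, because the longer stretch touches an exon annotated in GENCODE M21, as do the 30 bases shown for Sst. The Insl5 start site used lies 114 bases into the gene as given in the deposited table, so the Insl5 stretch lies within that gene.
Insl5, chr4:103026760-103026789: cagaggggttggTATAAatggtccaagagg
Pyy, chr11:102107833-102107932: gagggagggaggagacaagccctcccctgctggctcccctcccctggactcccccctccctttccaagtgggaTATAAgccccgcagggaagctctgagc
Gcg, chr2:62483654-62483753: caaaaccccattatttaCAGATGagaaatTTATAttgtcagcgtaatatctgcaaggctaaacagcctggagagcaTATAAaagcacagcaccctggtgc
Sst, chr16:23890874-23890903: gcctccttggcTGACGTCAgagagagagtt
Tph1, chr7:46672538-46672637: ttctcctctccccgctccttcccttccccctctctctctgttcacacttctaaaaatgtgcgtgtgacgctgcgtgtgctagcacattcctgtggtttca

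In the 250 bases before these start sites, TATAA occurred in the promoters of Insl5, Pyy and Gcg, the 3 genes that fell, and in neither Sst nor Tph1. Among all 32851 RefSeq promoter windows of that length, 22.8% held it. Its matches lay 49 bases before the Insl5 start, 27 before the Pyy start, and 71 and 24 before the Gcg start. A further annotated start of Tph1, 5160 bases into the gene, had TATAA beginning 30 bases before it. The cAMP response element was found 48 bases before the Sst start and in no other member, beside 1.55% of all windows. CAGATG occurred 83 and 139 bases before the Gcg start and 178 bases before the Insl5 start, beside 14.4% of all windows. CCGGAA, a core with flank that many Ets factors bind, was found 181 bases before the Gcg start and in no other member, beside 12.03% of all windows. No matches in the members overlapped. These are exact matches of letters, so near forms were not counted, such as TTTAAAAA in the Sst window, most of it beyond the bases shown. Binding was not measured, and a link between any motif and the direction of change was not tested.

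The 3 hormone genes of L cells fell in the knockout, and the somatostatin gene and Tph1 rose. Over all listed genes, 52.0% were lower and 48.0% higher in the knockout, so a split of 3 lower and 2 higher is close to that of the table. A difference of at least 4-fold was reached downwards by 24.5% and upwards by 12.9% of listed genes, and among the 5 genes by Insl5. The median log2 ratio was -1.35 over the 5 genes and -0.76 over the table, on the log2(FPKM + 1) scale. In bulk tissue, a change in the number of cells of a type and in RNA per cell cannot be told apart. FPKM is also relative to the whole library, so where some genes fall, others can read higher without more of their RNA. Both limits apply to every value below, and how far the second applies to genes that rose was not tested.

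Pyy (ENSMUSG00000017311, chr11:102106676-102107832) encodes peptide YY, which slows gut transit and reduces food intake. It had the highest level of the 5 genes in both genotypes, with 1002 FPKM in wild-type and 304.7 FPKM in knockout tissue (q = 0.000372, authors' deposited table). This was a 3.29-fold fall that left 30.4% of the wild-type level. Pyy ranked 47th by FPKM among the 4121 listed genes in wild type and 116th in the knockout.

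Insl5 (ENSMUSG00000066090, chr4:103017872-103026842) encodes a relaxin family peptide of colonic L cells that is known to stimulate appetite. Its level was 192 FPKM in wild-type and 38.2 FPKM in knockout tissue (q = 0.000372, authors' deposited table). The 5.04-fold fall was the largest of the 3, and 19.9% of the wild-type level was left. Among the 2141 listed genes that fell, 62.1% had a smaller fold than Insl5 and 25.1% a smaller fold than Gcg.

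Gcg (ENSMUSG00000000394, chr2:62474530-62483650) encodes proglucagon, from which L cells release glucagon-like peptide-1, an incretin, and glucagon-like peptide-2, a growth factor of the gut lining. Gcg was at 95.3 FPKM in wild-type and 36.7 FPKM in knockout tissue (q = 0.000372, authors' deposited table). The fall was 2.60-fold, and 38.5% of the wild-type level was left. Insl5 was 2.02 times the Gcg level in wild type and 1.04 times in the knockout. Pyy was 10.5 times the Gcg level in wild type and 8.30 times in the knockout.

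Within the summed FPKM of these L cell genes, which went from 1290 to 379.6, the share of Insl5 was 14.9% in wild type and 10.1% in the knockout. The share of Pyy was 77.7% and 80.3%, and that of Gcg 7.39% and 9.67%. Pyy thus made up most of this sum in both genotypes.

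**Figure D1:**
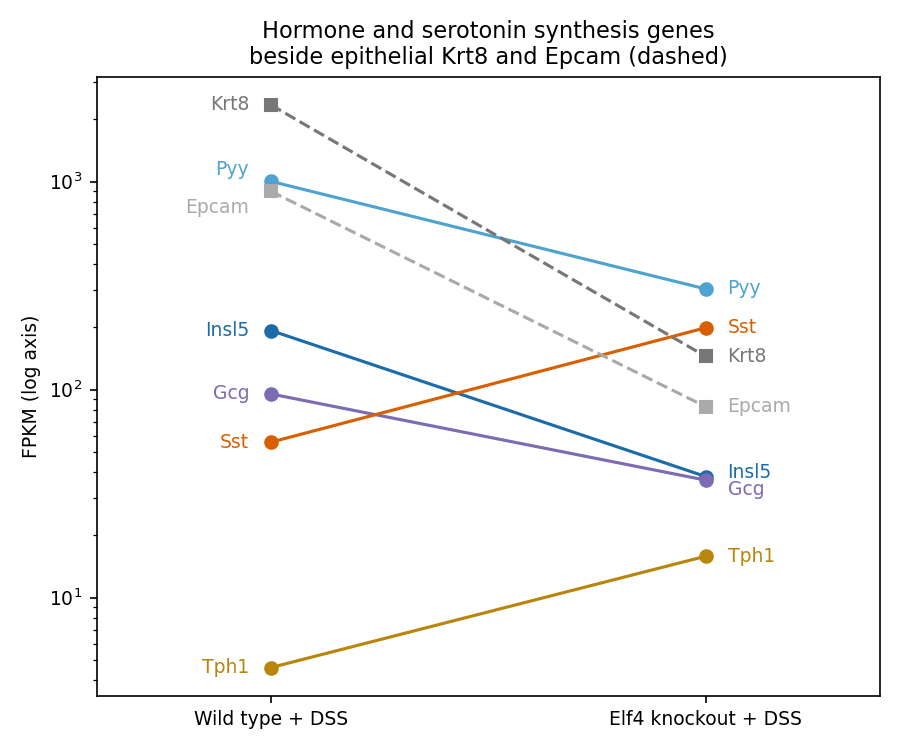
FPKM of the 5 genes (circles, solid lines) and of the epithelial genes Krt8 and Epcam (squares, dashed lines) in wild-type and Elf4 knockout colon after DSS, 1 value per genotype, on a log axis. The lines of Krt8 and Epcam fall more steeply than those of Insl5, Pyy and Gcg, while the lines of Sst and Tph1 rise.

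Krt8, a keratin of simple epithelia, and Epcam, an adhesion molecule of epithelial cells, served as a reference for the amount of epithelial transcript. Krt8 fell 16.2-fold, from 2335 to 144 FPKM, and Epcam 10.8-fold, from 898 to 82.8 FPKM. Their geometric mean fell 13.2-fold, from 1448 to 109 FPKM. Each of the L cell hormone genes therefore fell by a smaller factor than either reference gene. Pyy was 69.2% of the reference level in wild type and 279% in the knockout, a 4.03-fold higher quotient. Gcg went from 6.58% to 33.6% of the reference, 5.10-fold higher, and Insl5 from 13.3% to 34.9%, 2.63-fold higher.

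The same quotient differed far more for the other 2 genes. Sst was 3.86% of the reference level in wild type and 182% in the knockout, 47.0-fold higher. Tph1 went from 0.319% to 14.5% of the reference, 45.4-fold higher. Both folds contain the 13.2-fold fall of the reference, beside rises of 3.55-fold for Sst and 3.43-fold for Tph1 themselves. Against Krt8 alone, Epcam alone or the geometric mean of 19 listed pan-epithelial genes, the quotients of all 5 genes were also higher in the knockout. The lowest of these was 2.13-fold, for Insl5 against the pan-epithelial genes. A higher quotient is found for any listed gene that rose, or that fell by less than these references. The references fell at least 10.7-fold, and 24.5% of all listed genes fell at least 4-fold. Most listed genes therefore share this trait, and it is not particular to the 5 genes. Against Cldn4, a claudin chosen after its values were seen because it fell least of the 19 (29.4 to 11.3 FPKM, 2.60-fold), Insl5 and Pyy were lower, with log2 changes of -0.95 and -0.34. Gcg was then level, at 1.003-fold, and Sst and Tph1 stayed higher, at 9.24-fold and 8.93-fold.

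**Figure D2:**
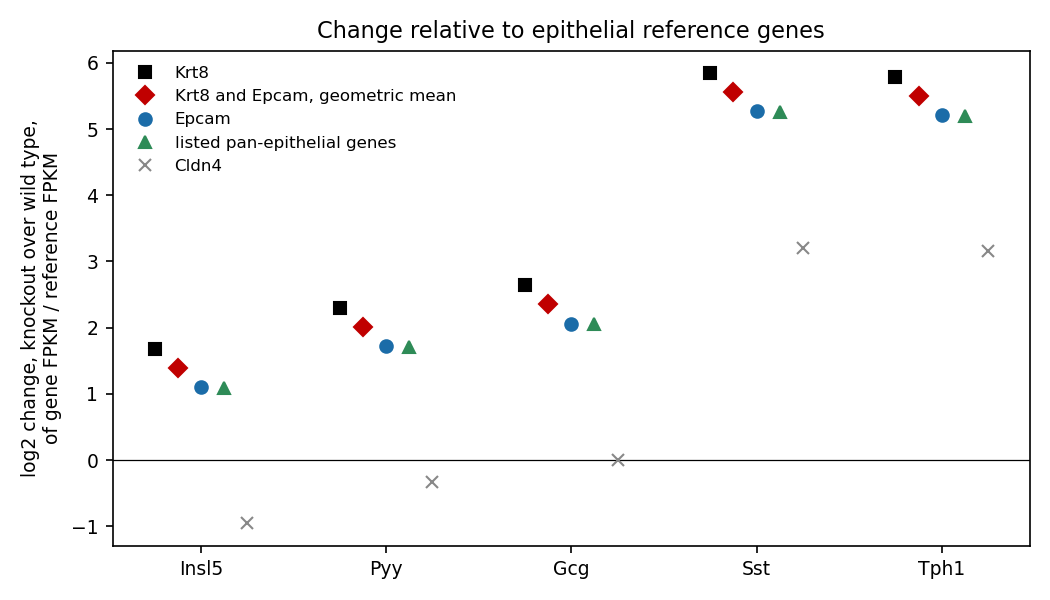
Log2 change, knockout over wild type, of each gene's FPKM divided by the FPKM of an epithelial reference, for 5 choices of reference. With Krt8, Epcam, their geometric mean or the pan-epithelial genes, points lie between 1.09 and 5.84, and with Cldn4 the points of Insl5 and Pyy lie below 0.

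Of 20 pan-epithelial genes on the list, 19 were in the table and all 19 fell, beside 52.0% lower over all listed genes. Their median fall was 11.6-fold. Krt19 fell 19.4-fold, from 1672 to 86.3 FPKM, and the intestinal transcription factor gene Cdx1 fell 16.6-fold, from 104 to 6.25 FPKM. Hnf4a, another transcription factor gene of gut epithelium, fell 15.9-fold, from 142 to 8.93 FPKM. The log2 ratios of Insl5, Pyy and Gcg were each above those of 18 of these 19 genes, with Cldn4 as the exception.

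Sst (ENSMUSG00000004366, chr16:23889581-23890844) encodes the precursor of somatostatin. Its level was 55.9 FPKM in wild-type and 198 FPKM in knockout tissue, a 3.55-fold rise (q = 0.000372, authors' deposited table). Of the 1980 listed genes that rose, 66.1% had a smaller fold. Sst moved from rank 748 by FPKM in wild type to rank 175 in the knockout. Pyy was 17.9 times the Sst level in wild type and 1.54 times in the knockout.

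Listed markers of enteric neurons and glia rose in the same tissue. Of 28 such markers, 10 are not analysed here, 18 were listed and all 18 rose, beside 48.0% higher over all listed genes. The 18 had a median log2 ratio of 1.54 and folds from 2.10 to 16.9. Their summed level was 222 FPKM in wild-type and 1013 FPKM in knockout tissue. Not every gene that neurons express rose: Tac1, placed on the list of other gut hormones, fell 3.25-fold from 379 to 117 FPKM. Npy, the neuropeptide Y gene, rose 16.9-fold from 1.90 to 32.0 FPKM, and Gal, the galanin gene, 9.78-fold from 12.3 to 120 FPKM. Cartpt, another neuropeptide gene, rose 8.51-fold from 2.34 to 19.9 FPKM, and Vip, for vasoactive intestinal peptide, 5.68-fold from 77.2 to 439 FPKM. The log2 ratio of Sst, 1.81, was above those of 14 of the 18 markers and below those of these 4 neuropeptide genes. The geometric mean of the 18 markers was 6.01 FPKM in wild-type and 23.3 FPKM in knockout tissue. Relative to that mean, Sst was 0.917-fold and Tph1 0.886-fold in the knockout, both nearly level. Insl5 was then 0.051-fold, Pyy 0.079-fold and Gcg 0.0995-fold. The 18 markers are all called genes that rose, and their mean rose 3.87-fold. Any listed gene with a rise near that size therefore comes out nearly level, such as Mmp14, a matrix protease gene that rose 3.62-fold. Being level is thus not particular to Sst and Tph1. The part of neurons in the rise of Sst was not tested.

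**Figure D3:**
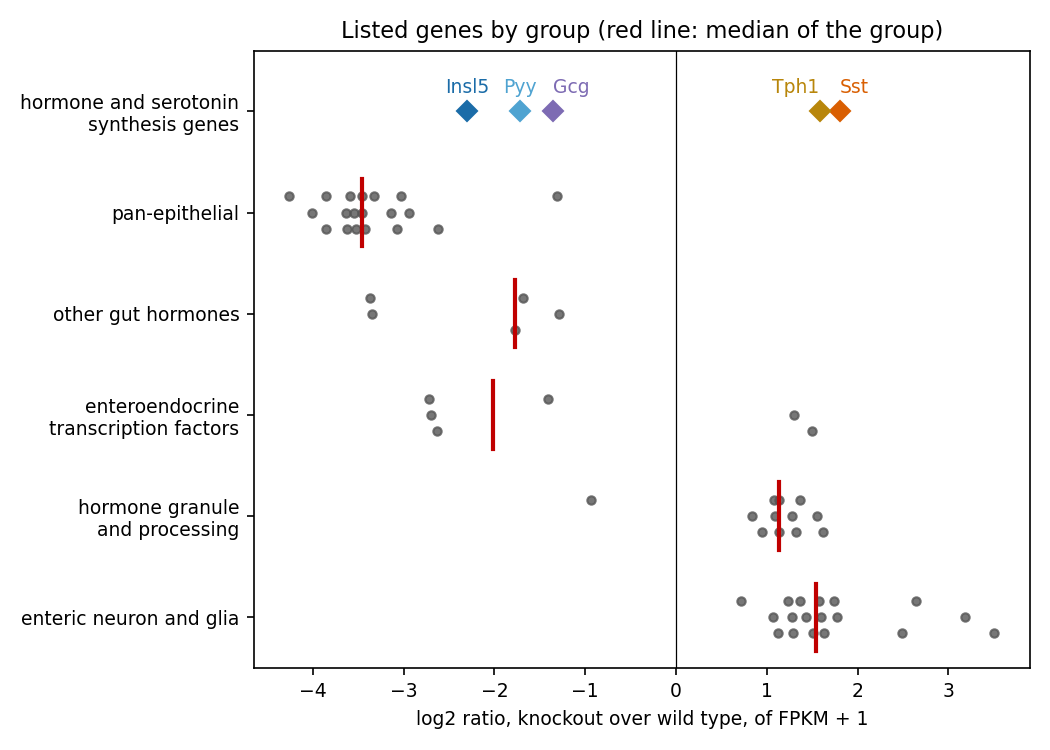
Log2 ratios of knockout over wild type on the log2(FPKM + 1) scale for the 5 genes (diamonds) and for listed genes of 5 other groups (circles), with a red line at each group's median. Insl5, Pyy and Gcg lie to the right of 18 of the 19 pan-epithelial genes, all but Cldn4, and Sst and Tph1 lie within the range of the enteric neuron and glia markers.

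Tph1 (ENSMUSG00000040046, chr7:46644641-46672537) was the gene with the lowest level of the 5, at 4.62 FPKM in wild-type and 15.8 FPKM in knockout tissue. It rose 3.43-fold (q = 0.000998, authors' deposited table). Sst was 12.1 times the Tph1 level in wild type and 12.5 times in the knockout, so the ratio of these 2 genes was nearly equal in both genotypes.

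Other listed genes of serotonin handling moved in both directions. Of 30 genes on that list, which leaves out Tph1, 10 were in the table, 7 lower and 3 higher, beside 52.0% lower over all listed genes, and the median log2 ratio was -1.24. Ddc, encoding the decarboxylase that completes serotonin synthesis, fell 2.88-fold from 14.4 to 4.996 FPKM. Gch1 and Pts, for synthesis of the tetrahydrobiopterin cofactor of tryptophan hydroxylase, also fell. Gch1 went from 36.1 to 16.9 FPKM, and Pts from 48.8 to 20.5 FPKM. The vesicle monoamine transporter gene Slc18a2 rose from 1.87 to 3.997 FPKM (q = 0.0197, authors' deposited table). Ddc, Gch1, Pts and Slc18a2 were named after their values were seen.

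The largest changes on this list included 3 genes that fell. Slc6a4, the serotonin reuptake transporter gene, fell 5.68-fold from 4.35 to 0.766 FPKM (q = 0.00811, authors' deposited table). Maoa, whose enzyme degrades serotonin, fell 7.47-fold from 125 to 16.7 FPKM. Ido1, whose enzyme diverts tryptophan to kynurenine, fell 9.39-fold from 60.9 to 6.49 FPKM. Slc6a4 and Maoa fell by smaller factors than Krt8 and Epcam, as did Ido1.

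Among serotonin receptor genes, Htr3a, for the ligand-gated channel subunit found on enteric neurons, rose 3.38-fold from 9.33 to 31.5 FPKM. Htr4 fell from 1.55 to 0.0673 FPKM (q = 0.00384, authors' deposited table), and Htr7 rose from 2.14 to 4.32 FPKM (q = 0.0402, authors' deposited table). Both were named after their values were seen.

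**Figure D4:**
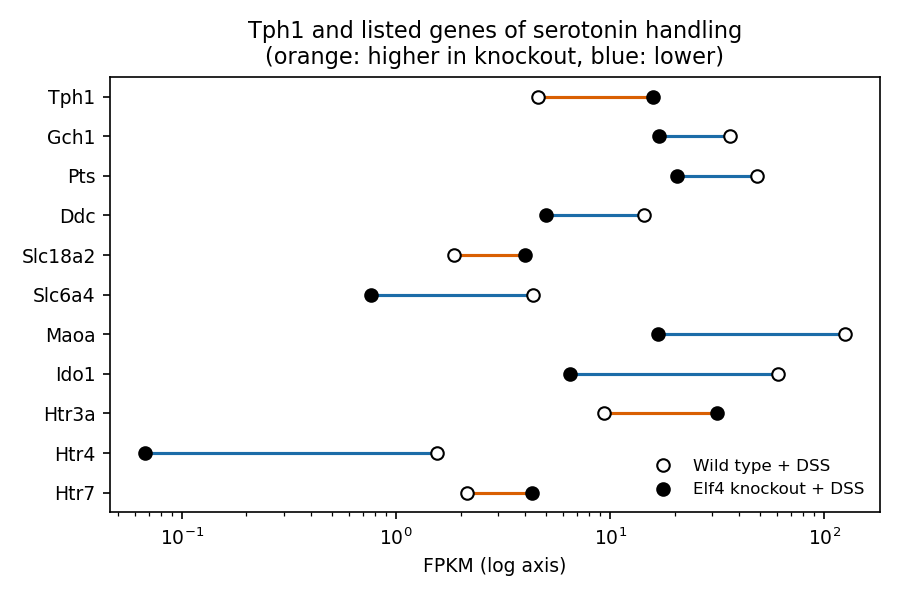
FPKM on a log axis of Tph1 and the 10 listed genes of serotonin handling in wild-type (open circles) and Elf4 knockout colon (filled circles) after DSS, 1 value per genotype. Orange lines join the values of Tph1, Slc18a2, Htr3a and Htr7, which rose, and blue lines those of the 7 genes that fell.

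Mast cell markers moved in both directions. Of 15 markers, 4 were listed, 2 higher and 2 lower, beside 48.0% higher over all listed genes. Their summed level was 64.6 FPKM in wild-type and 73.3 FPKM in knockout tissue. The mucosal mast cell protease genes Mcpt1 and Mcpt2 were both lower. Mcpt1 was at 31.7 and 3.99 FPKM, and Mcpt2 at 17.9 and 1.06 FPKM, in wild type and knockout. Kit, the stem cell factor receptor gene that interstitial cells of Cajal also express, rose from 7.95 to 17.7 FPKM. Hdc, for histamine synthesis, which other myeloid cells also express, rose from 7.06 to 50.5 FPKM. The other 11 markers are not analysed here, and the part of mast cells in the rise of Tph1 was not tested.

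The makeup of the 5 transcripts shifted towards Sst. Their summed level was 1351 FPKM in wild-type and 594 FPKM in knockout tissue, 2.27-fold lower. Sst made up 4.14% of the sum in wild type and 33.4% in the knockout. Pyy went from 74.2% to 51.3% and Insl5 from 14.2% to 6.43%. The share of Gcg was 7.06% and 6.18%, and that of Tph1 0.342% and 2.67%. Without Sst in the sum, the share of Pyy was 77.4% in wild type and 77.1% in the knockout.

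**Figure D5:**
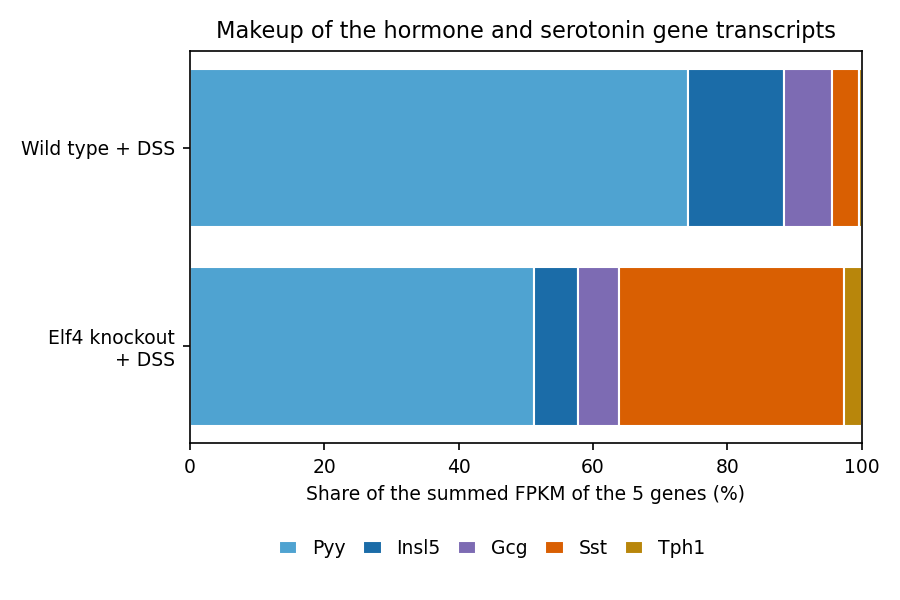
Share in percent of each gene in the summed FPKM of the 5 genes, in wild-type and Elf4 knockout colon after DSS, 1 value per genotype. The orange segment of Sst widens from 4.14% to 33.4% and that of Pyy narrows from 74.2% to 51.3%.

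Most of the listed genes of the hormone granule and of prohormone processing were higher in the knockout, and 6 genes of this list are not analysed here. These genes are shared by enteroendocrine cells and neurons. Of 18 on the list, 12 were in the table, 11 higher and 1 lower, beside 48.0% higher over all listed genes. The median log2 ratio of this list was 1.13. Pcsk2, a prohormone convertase gene, rose 4.40-fold from 1.55 to 6.80 FPKM, and Scg5, encoding its chaperone, 3.25-fold from 5.93 to 19.3 FPKM. Vgf, a secreted precursor protein gene, rose 4.23-fold from 0.950 to 4.02 FPKM, and Ptprn, a granule membrane protein gene, 2.88-fold from 3.90 to 11.2 FPKM (q = 0.000694 for both, authors' deposited table). The exception, Syt7, a synaptotagmin gene named after seeing its values, went down from 3.38 to 1.29 FPKM. The neuron and glia markers above rose by a median log2 ratio of 1.54, and the part of neurons in the granule genes was not tested.

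Of 6 enteroendocrine markers, 1 was listed, the granule gene Scg2, which rose from 10.4 to 26.7 FPKM. Chga, Chgb, Neurod1, Pcsk1 and Insm1 are not analysed here. Scg2 is also expressed by neurons.

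Of 23 transcription factor genes of enteroendocrine differentiation, 6 were listed, 4 lower and 2 higher, beside 52.0% lower over all listed genes. The median log2 ratio of this list was -2.02. Foxa2 fell 31.5-fold from 7.10 to 0.225 FPKM and Foxa1 8.85-fold from 17.4 to 1.97 FPKM, both forkhead factors needed in the gut for L and D cells. Atoh1, required for secretory cells of the gut, fell 13.9-fold from 10.3 to 0.740 FPKM. These 3 genes are also active in epithelial cells that make no hormone. The other 3 were Nkx2-2, Isl1 and Sox4. Nkx2-2, an enteroendocrine factor, fell from 1.96 to 0.118 FPKM (q = 0.0164, authors' deposited table). Isl1, which enteroendocrine cells and neurons express, rose from 2.17 to 7.95 FPKM, and Sox4 from 5.60 to 15.3 FPKM.

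Of 16 other gut hormone genes, 5 were listed and all 5 fell, beside 52.0% lower over all listed genes. The median log2 ratio of this list was -1.78. Guca2a and Guca2b, for guanylin and uroguanylin, which regulate salt and water secretion and come from many epithelial cells, fell 10.4-fold and 15.6-fold. Guca2a went from 2043 to 197 FPKM, and Guca2b from 26.7 to 1.72 FPKM. Tac1, for the tachykinins of enterochromaffin cells and neurons, fell 3.25-fold from 379 to 117 FPKM. The fall of Tac1 was close in size to the 3.29-fold fall of Pyy. Sct, the secretin gene, fell from 6.20 to 1.10 FPKM (q = 0.0281, authors' deposited table). Ppy, for pancreatic polypeptide, fell 2.59-fold from 23.6 to 9.08 FPKM (q = 0.0251, authors' deposited table).

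Of 22 nutrient, bile acid and microbial sensor genes of enteroendocrine cells, 6 were listed, 4 lower and 2 higher. Over all listed genes 52.0% were lower, so this split is close to that of the table. Ffar4, a receptor gene for long-chain fatty acids, fell 8.51-fold from 42.7 to 5.01 FPKM, and Ffar2, for short-chain fatty acids, 2.95-fold from 5.61 to 1.90 FPKM (q = 0.0168 for Ffar2, authors' deposited table). The peptide transporter gene Slc15a1 fell from 29.2 to 3.97 FPKM and the glucose transporter gene Slc5a1 from 28.7 to 4.91 FPKM. The cation channel genes Trpa1 and Trpc4 rose. Trpa1 went from 1.25 to 3.12 FPKM (q = 0.00773, authors' deposited table), and Trpc4 from 0.388 to 1.66 FPKM.

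Of 16 genes of hormone receptors and hormone breakdown, 2 were listed, 1 higher and 1 lower, beside 48.0% higher over all listed genes. Npy1r, a receptor gene for neuropeptide Y and peptide YY, rose 2.98-fold from 1.98 to 5.89 FPKM (q = 0.00184, authors' deposited table). Dpp4, whose protease inactivates glucagon-like peptide-1, fell 3.08-fold from 9.32 to 3.03 FPKM. The genes for somatostatin receptors, the insulin-like peptide 5 receptor and the glucagon-like peptide receptors are not analysed here.

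Of 19 pancreas markers, 3 were listed and all 3 fell. They were Ppy (already counted among the other gut hormones above), Cela1 from 64.2 to 11.8 FPKM, and Clps from 14.9 to 6.33 FPKM (q = 0.0486 for Clps, authors' deposited table). Their summed level was 103 FPKM in wild-type and 27.2 FPKM in knockout tissue. Over all listed genes, 52.0% were lower. The insulin genes Ins1 and Ins2 are not analysed here, and the presence of pancreatic tissue was not tested.

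For each of the 5 genes, the 2 listed genes with the nearest log2 ratio were sought among those whose wild-type FPKM was within 1.5-fold of its own. Likeness thus rests on 2 values per gene. For Insl5 these were Prss30 (169 to 33.4 FPKM) and Gsdmd (194 to 38.0 FPKM). For Pyy they were the goblet cell gene Clca1 (822 to 229.9 FPKM) and the mitochondrial carrier gene Slc25a5 (1306 to 361 FPKM), among 35 candidates. For Gcg they were the respiratory chain gene Ndufa9 (106 to 41.0 FPKM) and Anxa8 (138 to 53.5 FPKM). For Sst they were Tspan4 (38.2 to 137 FPKM) and Mmp14, a matrix protease gene (67.9 to 246 FPKM). For Tph1 they were Sorbs3 (4.73 to 16.2 FPKM) and Il18rap, a subunit of the interleukin-18 receptor (3.81 to 13.5 FPKM). The gap in log2 ratio was at most 0.14, for Slc25a5 beside Pyy.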

How the data were processed

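RNA was sequenced from 4 colon samples, 2 per genotype. The submitters' processing notes name Bowtie 0.12.2, Cufflinks 2.2.1 and mm8, without their roles. The authors deposited 1 FPKM value per gene and genotype, with the p-value and q-value of their own comparison. No source used here says how samples were combined. Listed genes had q up to 0.0499971 and differed at least 2-fold by the values. The deposited log2 column held 45 cells that are not numbers and was not used. Of 4121 identifiers, 4116 were found in GENCODE M21 (GRCm38) and 4114 overlapped the annotated gene, so coordinates are GRCm38, counted from 1. No annotated gene overlapped any of the 5 loci.

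No test between genotypes could be made here. Folds and quotients were computed from FPKM, and log2 ratios after adding 1 to each value, which understates changes of low genes. The quotient has the geometric mean of Krt8 and Epcam as denominator. The genes and 11 lists were chosen with earlier results of these data known, so lists carry no test. From the list of transcription factors, 1 gene is not reported here.

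Genes were named by rule: the 5 genes, Krt8, Epcam, Elf4, every listed gene of a list with at most 6 listed, otherwise the 4 largest log2 ratios in size with at least 1 FPKM in the higher genotype, and the 2 nearest genes to each member, leaving out unnamed loci and immunoglobulin segments. Others are said to be named after their values were seen. Unless given, q was at most 0.00184 for a named gene. Functions were tested on simulated data. Python 3.11.15, numpy 2.4.6, pandas 2.3.3 and matplotlib 3.10.9 were used.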

Additional observations from a re-analysis of the deposited data

How the results depend on the processing

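No paired analysis was possible because only 1 value is given per genotype, and leaving out each sample was therefore not run either. Shifts of over 1.5 times were counted, since replicates give no spread here. Pseudocounts of 0.1 and 0 moved none of the 5 log2 ratios by that much. Centring on the table median, -0.76, gave -1.55 for Insl5, -0.96 for Pyy, -0.60 for Gcg, 2.57 for Sst and 2.34 for Tph1, and turned none. With Cldn4 as the reference, an alternative chosen after seeing the data, the log2 change of Insl5 was -0.95 and of Pyy -0.34, both reversed, and it was 0.0043 for Gcg, 3.21 for Sst and 3.16 for Tph1. Without Sst, the knockout shares were 9.66% for Insl5, 77.1% for Pyy, 9.29% for Gcg and 4.004% for Tph1, since the sum is smaller by construction.

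Requiring at least 4-fold left 1 of the 5 genes, Insl5. Among list counts, the same limit left, as genes that fell, 3 of 5 listed other gut hormones, 4 of 10 serotonin handling genes and 1 of 3 pancreas markers. Over all listed genes, 24.5% fell at least 4-fold and 12.9% rose at least 4-fold. As genes that rose, it left 2 of 12 granule genes and 0 of 2 receptor and breakdown genes. It also left 5 of 18 neuron and glia markers and 1 of 4 mast cell markers that rose. With q of at most 0.01, 3 other gut hormones and 1 pancreas marker that fell were left. These counts are smaller because fewer genes pass. The remaining 69 of 93 alternatives, FPKM minimums of 1 and 5 among them, stayed within 1.5 times. Depth is unknown, and how far 1 sample sets any value was not tested.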

Other observations

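Listed genes near the 5 loci on the chromosome moved in both directions. Over all listed genes, 52.0% were lower and 48.0% higher, and the median fold in either direction was 3.21. Within 250 kb of Gcg, 3 of 6 annotated coding genes were listed and all 3 fell, beside the 2.60-fold fall of Gcg. These were Dpp4, 3.62 kb away (9.32 to 3.03 FPKM, 3.08-fold), the viral RNA sensor gene Ifih1, 112 kb away (32.3 to 12.5 FPKM, 2.58-fold), and Gca (13.3 to 5.20 FPKM, 2.57-fold, q = 0.021 in the authors' deposited table). Every listed gene differed at least 2-fold, so factors of this size are not particular to this locus. Dpp4 encodes the protease that inactivates the product of its neighbor Gcg. Within the same distance of Pyy, 6 of 19 coding genes were listed, 3 higher and 3 lower. Ppy, a gene of the same peptide family 5.36 kb away, fell 2.59-fold beside 3.29-fold for Pyy.

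Near Insl5, 1 of 6 coding genes was listed, Sgip1, whose deposited interval ends 5.91 kb away. Sgip1 rose 5.38-fold from 3.12 to 16.8 FPKM while Insl5 fell (q = 0.00312 for Sgip1, authors' deposited table). Near Tph1, 4 of 12 coding genes were listed, 3 of them serum amyloid A genes, acute-phase genes that moved apart. Saa3, 39.5 kb from Tph1, rose 13.0-fold from 436 to 5686 FPKM, and Saa4 went from 0.146 to 0.919 FPKM (q = 0.00811, authors' deposited table). Saa1 fell 7.70-fold from 1793 to 233 FPKM. Members of this family share sequence, so the split of reads between them is uncertain. The fourth, Hps5, fell from 25.9 to 11.4 FPKM. Near Sst, none of the coding genes was listed. These genes were chosen after their values were seen, and no test was made. All distances are between the deposited intervals, which can differ from the annotated genes.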
